A study of Mus musculus with 4 samples.

Results

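The largest cluster of replication-dependent histone genes in the mouse lies on chromosome 13. Its members were taken here as the protein-coding genes of the mm10 build between 21.7 and 23.8 Mb whose symbol begins with Hist1h, H1f, H2ac, H2bc, H3c or H4c, which gave 51 genes of 21887 protein-coding genes in all. They comprise 6 H1, 12 H2A, 13 H2B, 9 H3 and 11 H4 genes. Chromatin accessibility was measured by bulk ATAC-seq, in which a transposase cuts open DNA, in 4 libraries of mouse embryonic fibroblasts from the line iMGT-Myh6-eGFP-MEF. The treatment label is cardiomyocyte transdifferentiation, and doxycycline induces MGT in this line, that is Mef2c, Gata4 and Tbx5, transcription factors of the heart. The cells of all 4 libraries were transfected with an siRNA, received 1 μg/mL doxycycline the next day, and were frozen at day 1 of MGT expression. The groups differ only in the siRNA, with 2 siControl and 2 siChst7 libraries. Chst7 encodes a sulfotransferase, and a knockdown of its RNA cannot be checked in ATAC-seq peaks. No library without MGT induction is part of the series, so every value below describes cells after induction. The libraries of a group are labelled as biological replicates, with no word on separate cultures, so spread between them may be partly technical.

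Histone proteins package DNA. Pairs of H2A, H2B, H3 and H4 form the core of the nucleosome, and H1 binds the linker DNA between nucleosomes. A dividing cell needs a new set of histones each time it copies its genome, so these genes are transcribed mainly in S phase. They are small, lack introns in their main form and give mRNAs that end in a stem-loop, bound by SLBP, instead of a poly(A) tail. Many near-identical copies encode each protein. In the nucleus the clustered genes gather at the histone locus body, which is built around NPAT. Accessibility of a gene start does not measure its transcription.

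The 51 genes fall into 3 subclusters separated by gaps of more than 100 kb. The first holds 17 genes at chr13:21715711-21833475, the second 5 genes at chr13:22035122-22043658, and the third 29 genes at chr13:23531044-23764412. Many H2A and H2B genes stand back to back. Among genes with a known start, 8 such divergent pairs have starts separated by 163 to 248 bases. A single accessible region covers both starts in each of the 8, and the shared DNA of 3 pairs is shown as examples. The sequences come from RefSeq promoter windows of GRCm38.p6, the assembly of mm10, and are written along the plus strand from 1 start to the other. Capitals mark, on either strand, the CCAAT box, the TATA box written TATAAA, the octamer ATTTGCAT bound by Oct factors, and the box AAACACA known from H1 promoters. The stretch of H2ac12 and H2bc12 lies at chr13:22035644-22035820, that of H2bc7 and H2ac7 at chr13:23574208-23574380, and that of H2ac15 and H2bc15 at chr13:21753913-21754075. The first holds the octamer, which the other two lack, and each holds 3 or 4 CCAAT boxes.
H2ac12/H2bc12: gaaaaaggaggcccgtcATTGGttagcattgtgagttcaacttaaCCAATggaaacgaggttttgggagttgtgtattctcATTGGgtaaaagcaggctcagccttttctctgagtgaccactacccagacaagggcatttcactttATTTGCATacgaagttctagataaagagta
H2bc7/H2ac7: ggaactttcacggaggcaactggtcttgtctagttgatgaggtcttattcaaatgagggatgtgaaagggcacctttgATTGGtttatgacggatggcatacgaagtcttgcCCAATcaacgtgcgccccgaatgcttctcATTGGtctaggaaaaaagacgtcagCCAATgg
H2ac15/H2bc15: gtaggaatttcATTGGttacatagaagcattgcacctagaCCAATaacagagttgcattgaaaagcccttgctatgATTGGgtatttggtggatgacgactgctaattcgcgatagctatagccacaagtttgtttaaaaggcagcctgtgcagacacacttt

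The 250 bases upstream of 5 single starts are shown for the contrasts described below, each written 5′ to 3′ along its gene. H1f2 (chr13:23738557-23738806, plus strand) had the tallest peak of all members and H1f5 (chr13:21780626-21780875, minus strand) the lowest start peak. The H1f2 summit lay past the end of the gene, whereas that of H1f5 lay near its start. H1f6 (chr13:23695561-23695810, plus strand) was the member without a start peak. H4c6 (chr13:23551669-23551918, minus strand) and H4c2 (chr13:23756687-23756936, plus strand) encode the same kind of histone and differed in height.
H1f2: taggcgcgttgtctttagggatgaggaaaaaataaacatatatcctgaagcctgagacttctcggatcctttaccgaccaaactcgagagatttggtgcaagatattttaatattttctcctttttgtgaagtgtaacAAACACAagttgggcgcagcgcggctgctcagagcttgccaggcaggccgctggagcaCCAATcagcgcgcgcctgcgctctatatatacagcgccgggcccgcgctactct
H1f5: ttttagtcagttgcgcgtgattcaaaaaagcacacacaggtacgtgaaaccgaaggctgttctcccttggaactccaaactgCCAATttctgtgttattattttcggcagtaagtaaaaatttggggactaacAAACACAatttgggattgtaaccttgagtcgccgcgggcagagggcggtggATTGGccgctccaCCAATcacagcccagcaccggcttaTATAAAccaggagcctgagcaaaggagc
H1f6: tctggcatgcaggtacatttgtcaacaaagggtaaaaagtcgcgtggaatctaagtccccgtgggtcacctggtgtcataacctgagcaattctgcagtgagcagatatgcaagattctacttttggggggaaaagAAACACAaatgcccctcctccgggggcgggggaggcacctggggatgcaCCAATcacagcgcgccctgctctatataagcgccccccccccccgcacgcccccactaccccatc
H4c6: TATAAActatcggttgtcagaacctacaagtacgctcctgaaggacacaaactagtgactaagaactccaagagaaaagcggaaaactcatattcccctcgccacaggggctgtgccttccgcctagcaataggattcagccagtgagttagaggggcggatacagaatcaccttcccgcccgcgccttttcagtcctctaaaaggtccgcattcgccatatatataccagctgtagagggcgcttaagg
H4c2: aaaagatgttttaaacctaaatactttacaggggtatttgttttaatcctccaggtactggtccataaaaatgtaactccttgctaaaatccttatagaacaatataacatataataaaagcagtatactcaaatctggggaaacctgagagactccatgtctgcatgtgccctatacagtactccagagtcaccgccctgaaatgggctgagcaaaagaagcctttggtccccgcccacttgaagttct

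Peaks lay at or near every histone gene of the cluster. All 51 genes had a called peak overlapping the gene or within 1 kb in each of the 4 libraries, against 67.1% of the 21887 protein-coding genes. Small genes elsewhere rarely had one. Of the genes no longer than 1000 bp, 47 of 47 histone genes had a peak within 1 kb in all 4 libraries (H1f6 through a neighbour's peak, described below), against 67 of 1530 others (4.38%). Over all genes of that length, histone genes included, the share was 7.23%. The other short genes were not matched for function.

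A narrower measure asked whether a peak lay over the gene start itself, in the window from 250 bases before to 50 bases after it. A start peak was called in all 4 libraries at 50 of the 51 genes, against 50.2% of the 17492 protein-coding genes with such a window. For H3c7, H2bc4 and H3c1, which have no window in the table used, the gene itself was taken. The exception was H1f6, which encodes the testis-specific linker histone H1t. The nearest peak to H1f6 began 967, 970, 972 and 987 bp from the gene in siControl 1, siControl 2, siChst7 1 and siChst7 2, and belonged to the neighbouring H4c3. Thus H1f6 met the 1 kb rule only through its neighbour. H2ac1 and H2bc1, a testis pair of the same family outside the span, had no peak in any library.

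Merging the peaks of the 4 libraries at 1 bp overlap gave 43 regions at the histone genes and 67 regions between them, of 90239 in the series. Of the 43 regions, 42 (97.7%, exact 95% binomial interval 87.7% to 99.9%) were called in all 4 libraries, against 62% of all regions. All 38 that covered a gene start were called in all 4. The remaining region lies inside the long model of H2bc22 at chr13:21797955-21798175 and was called in siControl 2 alone, with 13 reads. Between the genes, 50 of 67 regions (74.6%, interval 62.5% to 84.5%) were called in all 4, and at the ends of other protein-coding genes 83.1% of 14720. Gene ends here mean within 1 kb of either the start or the 3′ end, so that group is not limited to starts. The intervals treat regions as separate and cover counting error only.

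The regions between the histone genes were mostly at tRNA genes. Of the 67, 48 lay at a tRNA gene, 3 of which also lay at the end of another protein-coding gene, 6 lay at such an end only and 13 at neither. Before the last subcluster lies a gap of 1487 kb, with 36 vomeronasal receptor genes (Vmn1r, pheromone receptors of the nose). Within that gap, chr13:22051640-23285295 held no peak in any library, a stretch of 1234 kb. All 36 Vmn1r genes lacked a peak in every library, whereas 8 of the 10 other protein-coding genes of the span had 1 in all 4. Over all protein-coding genes 67.1% had 1 in all 4, and of those no longer than 1000 bp 7.23% did. Among the 8 were Zfp184, Abt1 and Hfe, the hereditary hemochromatosis gene. H4bc24 was also among them, through a peak that belongs to the region of the histone gene H2ac24.

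**Figure D1:**
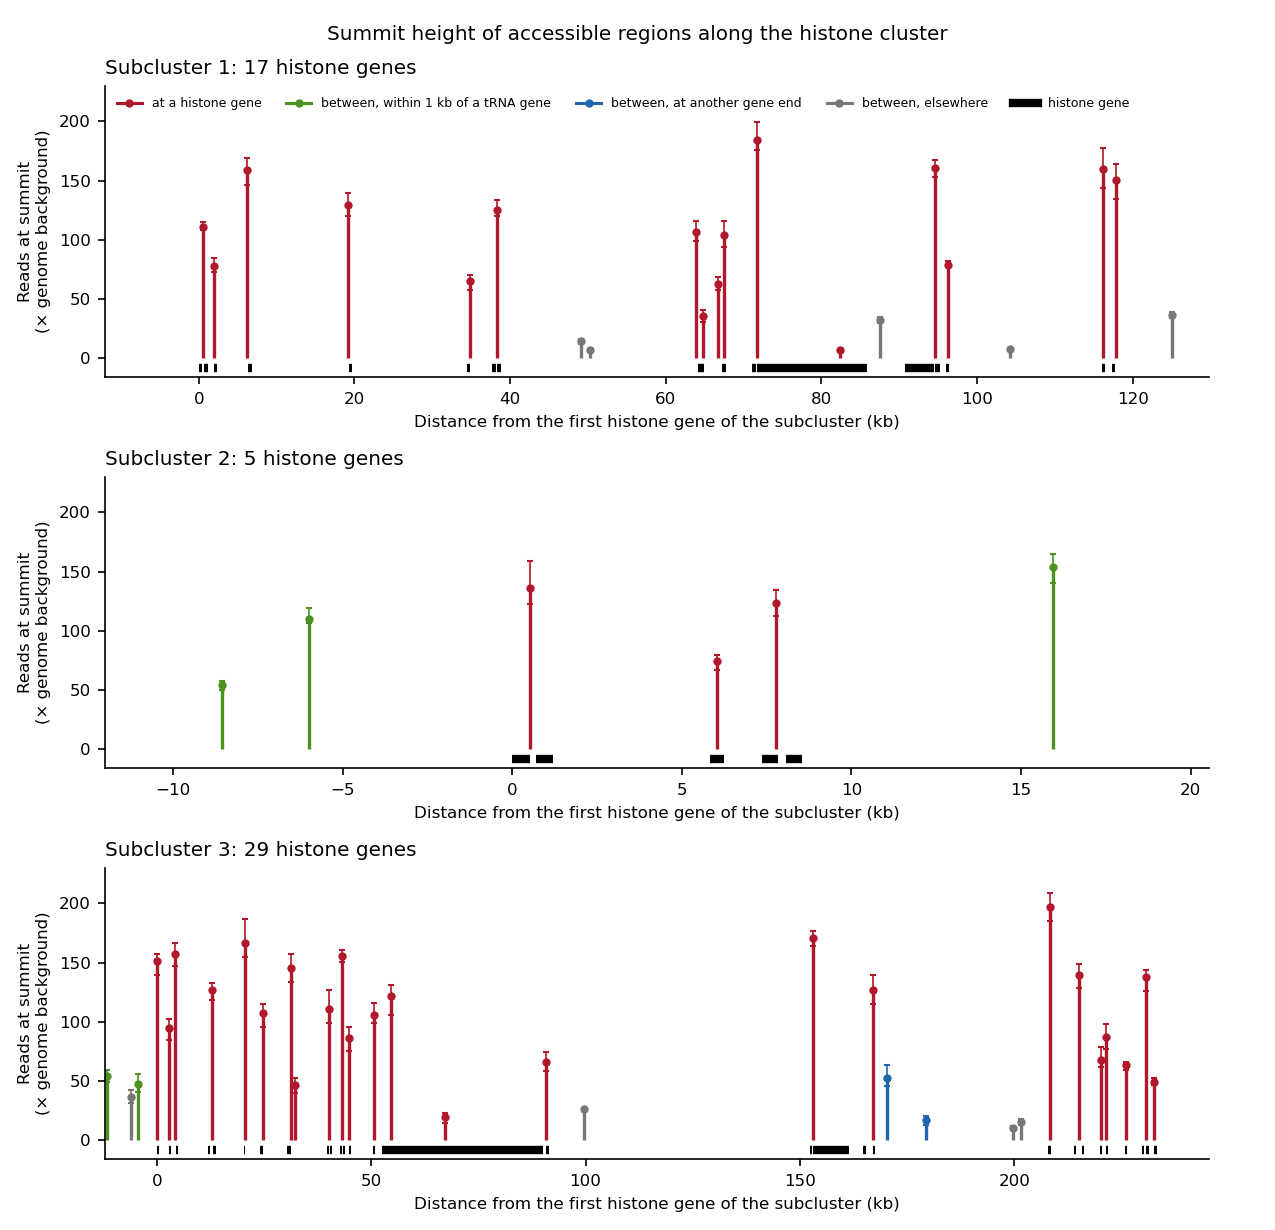
Height of each accessible region along the 3 subclusters, as reads at the summit over the genome-wide background of the library, against distance from the first histone gene of the subcluster in kb. Points are means over the libraries that called the region, whiskers run from the lowest to the highest library, black bars are histone genes, and colours separate regions at histone genes (H1f2 is the tallest at 197 times) from those between them at tRNA genes, at other gene ends or elsewhere.

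The height of a peak was expressed as the number of reads at its summit divided by the genome-wide background of the library. Summit reads were recovered from the deposited fold enrichment and p-value. The genome-wide background is an estimate, taken near the lowest of the local backgrounds recovered around the library's peaks. The siControl libraries had backgrounds of 1.92 and 1.82 reads and the siChst7 libraries 2.03 and 1.48, so raw read numbers are lowest in siChst7 2. The median peak at the histone genes stood 118 and 116 times above background in siControl and 111 and 112 times in siChst7. The mean of these 4 medians was 114 ± 3.21 (SD, n = 4 libraries), compared with 62.7 ± 3.21 at other gene ends and 38.6 ± 3.41 between the histone genes. No library of the histone genes overlapped either comparison group.

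Ranked by summit reads among all peaks of its own library, the median histone peak lay at the 93.5th and 92.9th percentile in siControl and the 93.6th and 92.1st in siChst7. Peaks at other gene ends lay at 81.1, 81.8, 80.7 and 80.1, a difference of 12.1 percentile points. Peaks between the histone genes lay at 70.4, 66.4, 66.3 and 66.9, a difference of 25.5. Both differences had the same sign in 4 of 4 libraries, which gives an exact sign-flip permutation p of 0.125, the smallest that 4 libraries allow (two-sided). On average 63.4% ± 3.33 (SD, n = 4) of histone peaks were among the top 10% of their library by reads, compared with 31.6% of peaks at other gene ends. Counted by gene, 32 of 48 histone genes with a start window had such a start peak in all 4 libraries, against 21.3% of all genes.

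The authors' fold enrichment ranked the same peaks much lower. It divides the summit by a background measured around the peak, and that local background was high here. Local background at the histone peaks was 15.8 and 15.8 times the genome-wide level in siControl and 15.1 and 15.0 times in siChst7, against 5.54 to 5.86 times at other gene ends and 4.61 to 5.93 times between the histone genes. The median fold percentile of the histone peaks was 44.2, 44.9, 46.3 and 43.4, compared with 65.4, 67.1, 65.8 and 66.0 at other gene ends. The difference of -21.4 points had the same sign in 4 of 4 libraries (exact sign-flip permutation p = 0.125). Peaks at histone genes therefore ranked above peaks at other gene ends by reads and below them by fold. Against the regions between, the fold percentile differed by 2.40 points (exact permutation p = 0.125), and this small difference turned to -5.14 when regions at tRNA genes were left out and to -1.66 at a −log10 q of at least 10.

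Peaks at histone genes were also wider than those between them. Their median widths were 894.5, 788, 874 and 807 bp, against 476, 437.5, 486 and 426 bp between the genes. The difference of 384.5 bp had the same sign in 4 of 4 libraries (exact permutation p = 0.125). Peaks at other gene ends, with medians of 759, 752, 761 and 732 bp, were closer in width to the histone peaks. The width difference from other gene ends was not tested. Histone genes are short, with a median length of 490 bp, and the start peak covered a median of 86.2% of the gene. The peak over a start therefore mostly spanned the gene as well.

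**Figure D2:**
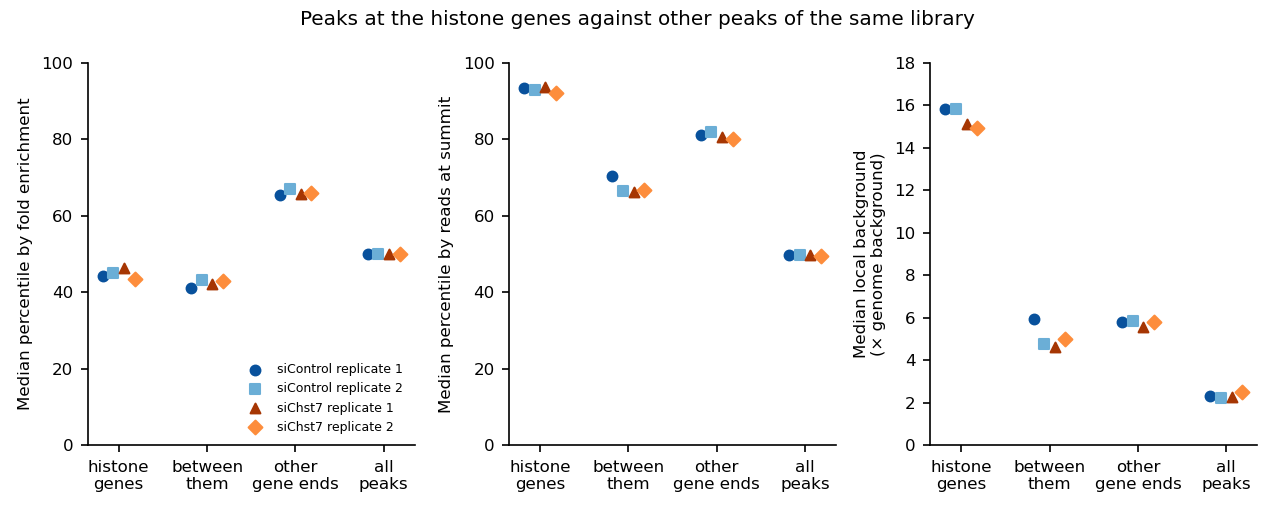
Median percentile of peaks within their own library by the authors' fold enrichment and by reads at the summit, and median local background over the genome-wide background, with 1 point per library for peaks at histone genes, between them, at other gene ends and for all peaks. Histone peaks average the 44.7th percentile by fold, below other gene ends at 66.1, and the 93.0th by reads, above them at 80.9, and their local background is highest at 15.0 to 15.8 times.

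Start peaks of the core histone classes had similar heights and those of H1 were lower at the median. Median height over genes was 65.7 times background for H1 (range 35.5 to 197), 131 for H2A (67.7 to 184), 136 for H2B (111 to 184), 107 for H3 (77.5 to 157) and 127 for H4 (63.8 to 167). The ranges of the 5 classes overlap. The top of the H1 range is H1f2, whose summit lay past the end of the gene. Neighbouring genes often share 1 peak, as 24 members do, so genes are not independent and no test between classes was made. The subclusters had medians of 125, 123 and 126 times background.

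**Figure D3:**
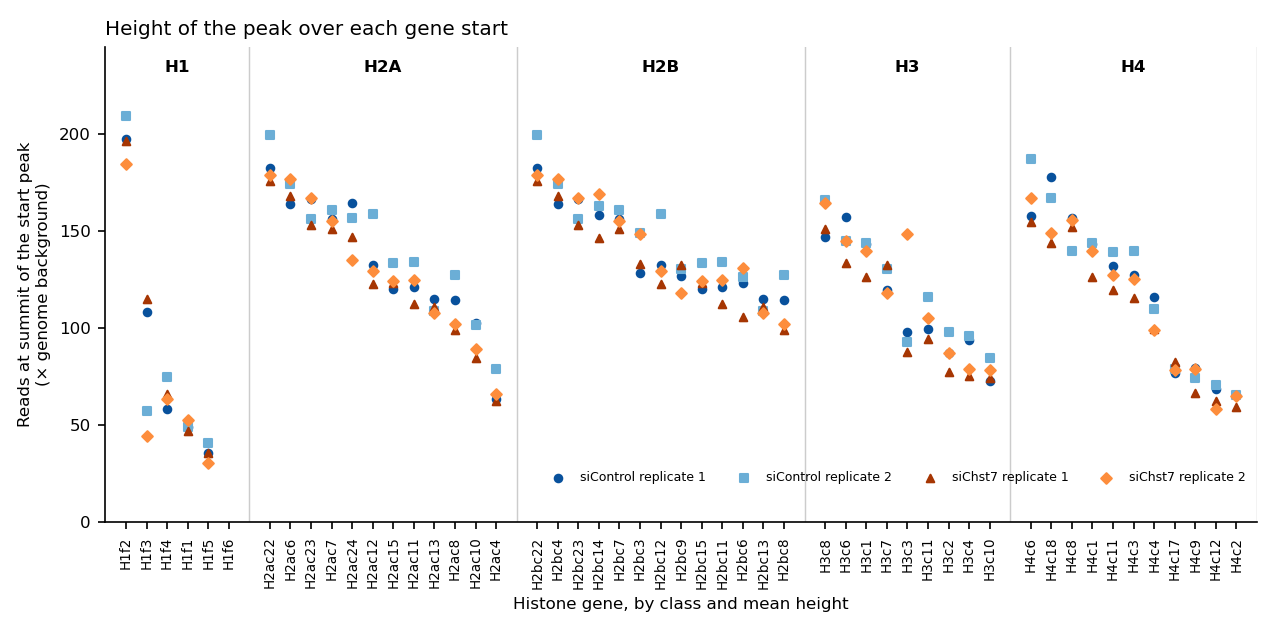
Height of the start peak of each member as reads at the summit over the genome-wide background, 1 point per library, grouped by histone class. H2B genes all average 111 times or more, whereas H1 genes run from 35.5 times at H1f5 to 197 times at H1f2. The H1f2 summit lies past the end of the gene.

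Of the 6 linker histone genes 5 had a start peak in all 4 libraries, and for 3 of them (H1f1, H1f4 and H1f5) the median summit of that peak lay within 250 bp of the start. H1f2, H1f3 and H1f5 also had accessible DNA at the 3′ end. H1f2 (Hist1h1c), a main somatic H1, had 379 and 380 reads at the summit in siControl and 398 and 274 in siChst7. Relative to background these are 198, 209, 196 and 185 times, the highest of any member. The summit lay 975 to 986 bp downstream of the start in all 4 libraries, past the end of the gene. H1f5 (Hist1h1b) had a low start peak, with 68, 74, 72 and 45 reads. A separate region at its 3′ end, chr13:21779358-21779943, had 203, 211, 201 and 158 reads and was higher than the start in every library.

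H1f3 (Hist1h1d) showed how peak calling shapes these values. Its start peak had 208 reads in siControl 1 and 233 in siChst7 1, but 104 in siControl 2 and 66 in siChst7 2. In the former 2 libraries start and 3′ end were called as a single peak of 1602 and 1566 bp, and in the latter 2 the start peak was 576 and 405 bp wide. The tallest summit of the whole region was steadier, at 208, 174, 233 and 166 reads. H1f4 (Hist1h1e) had 112, 136, 134 and 94 reads, and H1f1 (Hist1h1a) 94, 89, 95 and 78. No annotated gene outside the cluster lies within 1 kb of the regions at the ends of H1f2, H1f3 and H1f5.

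For H2A and H2B, 1 accessible region covered both starts of each of the 8 divergent pairs, and the summit fell between the starts in all 4 libraries for 6 pairs. The exceptions were H2ac8/H2bc8, in 1 library, and H2ac15/H2bc15, in none. H2ac22/H2bc22 was the tallest pair, with 350, 363, 357 and 265 reads (184 times background). H2ac12/H2bc12, whose intergenic sequence is printed above, had 254, 289, 249 and 192 reads. H2ac8/H2bc8 had 219, 231, 201 and 151 and H2bc13/H2ac13 had 220, 198, 225 and 160 reads, each 111 times background, the lowest of the 8 pairs.

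Outside these pairs, H2ac6 shared its peak with H2bc4, which has no start window and so was not considered for a pair. That peak had 314, 317, 341 and 262 reads, close to the tallest pair. H2bc14 had 304, 296, 297 and 251 and H2bc6 had 236, 230, 214 and 194. The lowest H2A start was H2ac4, with 122, 143, 126 and 98 reads. H2ac10 had 197, 185, 171 and 132 reads on a local background of 27.1 to 29.2 times the genome-wide level, which put its fold at 3.08 to 3.58. Summits lay upstream of the start at 12 of 12 H2B genes and 9 of 12 H2A genes with a known strand and start window, but at 1 of 5 H1, 5 of 7 H3 and 5 of 11 H4 genes. In all, 43 of 47 such summits lay within 250 bp of the start, with a median of -41.5 bp. The genes of a divergent pair share a summit, and a summit between their starts counts as upstream of both.

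**Figure D4:**
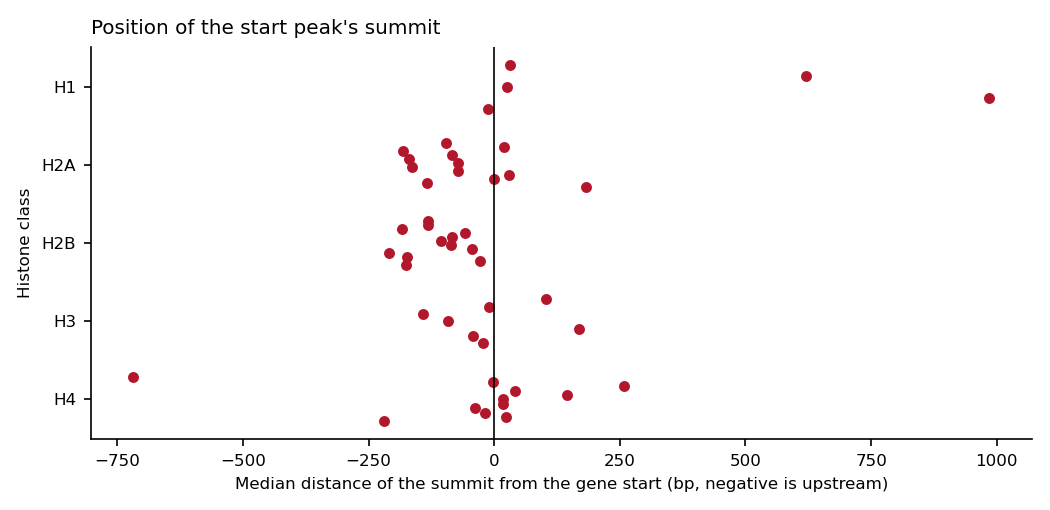
Median distance of the start peak's summit from the gene start in bp, 1 point per gene, by histone class, with negative values upstream. All 12 H2B points are upstream, while 1 of 5 H1 points is, and the H4 point farthest upstream is H4c11 at -718 bp.

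Among H3 genes, ranks by reads and by fold also parted, as a comparison of H3c8 with H3c6 shows. H3c8 had 282, 302, 306 and 244 reads, the 96.5th to 97.6th percentile of its libraries, and a fold percentile of 24 to 30.3. H3c6 had a similar number of reads, 302, 263, 271 and 215, with folds of 14.0, 13.6, 12.2 and 13.7 and percentiles of 80.0 to 85.8. The local background was 26.8 to 28.8 times the genome-wide level at H3c8 and 9.99 to 10.8 times at H3c6. H3c7 had 229, 237, 269 and 175 reads, H3c11 had 191, 211, 191 and 156, and H3c10 was lowest with 139, 154, 151 and 116. Except in siControl 1, the H3c7 value comes from a peak shared with H2bc9, whose summit lay outside H3c7. At H3c10, H3c11 and H3c4 the mean ranks lay further apart than at H3c8, and at H3c10 they were the 85.7th percentile by reads and the 2.04th by fold. H3c3 had 188, 169, 178 and 220 reads, and the last value comes from a peak of 1750 bp that siChst7 2 shared with H2bc3.

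The H4 genes encode the same protein from many copies, and their start peaks still differed. H4c6 had 303, 340, 314 and 248 reads at the summit and H4c2 had 126, 119, 120 and 96, so the groups of 4 values do not overlap. At H4c2 the fold was 3.39, 3.41, 3.25 and 3.45, the 3.77th to 4.74th percentile, although its reads ranked at the 80.1st to 82.2nd. H4c12 was similarly low, with 131, 128, 127 and 86 reads. H4c8 had 301, 254, 308 and 231 reads, and its region also takes in a tRNA gene. H4c3 had 244, 254, 234 and 186 reads at a summit near its start, whereas the summit of H4c11 lay at -718 bp, upstream of the start, in all 4 libraries, with 253, 253, 243 and 189 reads.

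Some members are so alike that short reads cannot be placed between them. H4c17 and H4c18 shared 93.4% of their start windows in stretches of 75 bases, the read length, and H2ac24 and H2bc23 shared 70.4% and H2ac23 55.8% with other start windows of the cluster. The other 43 of 48 windows shared none. Only start windows of the cluster were compared, so gene bodies, where some summits lie, and histone genes of other loci were not covered. H4c17 had 147, 143, 167 and 116 reads and H4c18 had 341, 304, 292 and 221, 79.0 and 160 times background on average. How reads with several matches were assigned is not given in the sources used here, so the split between this pair is uncertain.

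The promoters were rich in the short motifs known from histone genes. CCAAT, bound by NF-Y, occurred on either strand in the 250 bases upstream of 40 of 48 histone genes (83.3%), against 36.3% of 17492 protein-coding genes. It was found at 6 of 6 H1, 12 of 12 H2A, 12 of 12 H2B and 7 of 7 H3 genes, but at 3 of 11 H4 genes. TATAAA occurred at 24 (50%), against 12.4%, counted at any distance from the start within the window. ATTTGCAT occurred at 8 (16.7%), against 1.61%, namely 4 H2A and 4 H2B genes. AAACACA, searched for after the sequences had been read, occurred at 5 of 6 H1 genes and at H2bc14 and H2ac4, 14.6% of members against 5.44%. The letters do not overlap one another, windows of divergent pairs share bases, and a match is not a bound site.

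Upstream sequence of the histone genes was poorer in G and C than that of genes at large, with a median of 44.6% (range 32.4% to 61.6%) against 55.2%. H4c6 and H4c2, printed above, both lack CCAAT, and H4c6 holds TATAAA only at the end of its window farthest from the start. H1f2, H1f5 and H1f6 all hold AAACACA and CCAAT, including H1f6 with no start peak. These examples were chosen after their values were seen, and the H1f2 summit lay past the end of the gene. Any relation of the letters to peak height was not tested.

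The siRNA comparison asked whether Chst7 knockdown changed accessibility at the histone genes. Of the 43 regions, 42 and 43 were called in siControl and 42 and 42 in siChst7, a difference of -0.5 regions (exact permutation p = 1). No histone region was called only with siChst7 (1.24% of all regions) and none in both siControl libraries only (2.84%). With 2 libraries against 2, the smallest p an exact permutation test can give is 0.333.

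Reads were next divided by each library's median over the 55924 regions called in all 4. Among the 42 shared histone regions the log2 difference, siChst7 minus siControl, had a median of -0.05 and ran from -0.37 to 0.20, against a median of -0.01 over all shared regions. Both siChst7 values were above both siControl values at 4 regions (9.52%, against 21.1% of shared regions) and below at 11 (26.2%, against 22.1%). Scaled to the genome-wide background instead, 1 was above (2.38%, against 15.6%) and 17 below (40.5%, against 29%), with medians of -0.09 and, over all shared regions, -0.06. By fold percentile 11 were above (26.2%, against 19.5%) and 6 below (14.3%, against 18.4%), and by percentile of reads 7 were above (16.7%, against 21%) and 9 below (21.4%, against 21.7%). The split between higher and lower histone regions therefore depended on the scale.

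The median fold percentile of the histone regions among shared regions was 30.9 in siControl 1, 30.7 in siControl 2, 32.8 in siChst7 1 and 35.3 in siChst7 2. The siChst7 libraries were higher by 3.23 points without overlap (exact permutation p = 0.333). Ranked by reads the values were 91.4 and 92.2 in siControl and 91.7 and 91.2 in siChst7, a difference of -0.357 points (exact permutation p = 0.667), and the groups overlapped. siChst7 2 also had the lowest genome-wide background (1.48 reads) and the fewest peaks of the 4 libraries. Read totals are unknown, and the part of depth in these differences was not tested.

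The regions that differed most were chosen after their values were seen and carry no test. The region at chr13:23597877-23598438, inside the long model of H2bc6, had 40 and 42 reads in siControl and 29 and 28 in siChst7, a log2 difference of -0.37. Its pooled SD between replicates was 0.19, and counting error alone gives an SD of 0.25 for the difference. The start of H3c4 at chr13:23575647-23576107 had 180 and 174 reads against 153 and 117, a log2 difference of -0.25 with a pooled SD of 0.01 and a counting SD of 0.12. H2ac8/H2bc8 had a difference of -0.21, and H1f3 had the largest rise in value at 0.20.

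**Figure D5:**
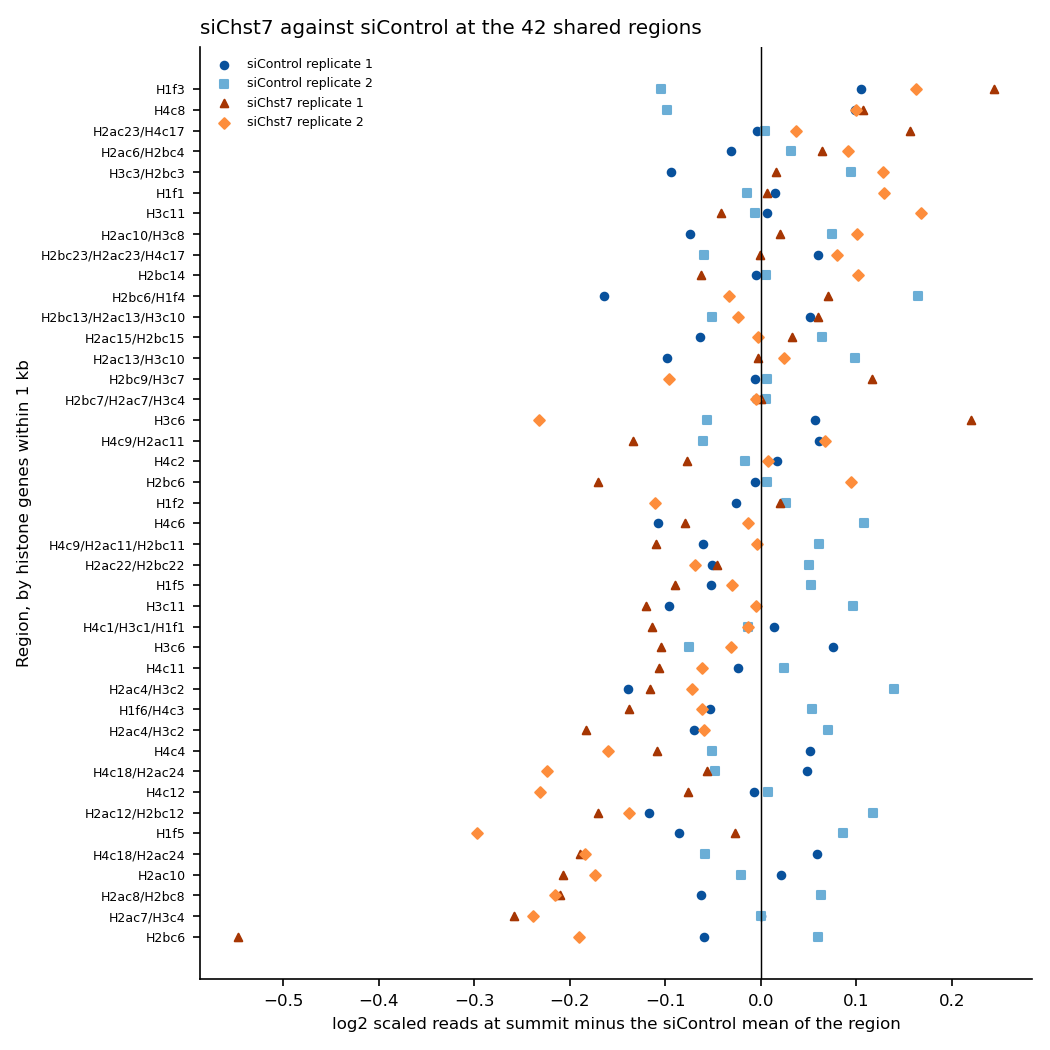
Reads at the summit of the 42 histone regions called in all 4 libraries, as log2 of reads over the library's median for shared regions minus the siControl mean of the region, 1 point per library. Regions are ordered by the siChst7 minus siControl difference, from 0.20 at H1f3 (top) to -0.37 inside H2bc6 (bottom), and 11 have both siChst7 points left of both siControl points.

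The genes that act on these histones were accessible too. All 22 genes of a list for histone mRNA transcription and processing, which includes Npat, Slbp and the H4 gene activator Hinfp, had a peak within 1 kb in all 4 libraries (67.1% of all genes), with a median height of 101 times background. The tallest were Hinfp at 235 and Npat at 222 times. Replication-dependent histone genes of other loci had a peak in all 4 libraries at 13 of 13, with a median of 115 times. The cluster's median of 125 is for start peaks, whereas the lists take a peak within 1 kb, so these medians are not like for like. Replication-independent variants, which are also made outside S phase, had one at 11 of 11 genes, with a median of 148 times, and the tallest were H3f3b at 221 and H2ax at 220.3 times. The marker lists gave 10 of 10 fibroblast genes (median 67.8 times), 5 of 5 cardiomyocyte genes (21.4), 4 of 5 endothelial genes (27.1), 4 of 5 epithelial genes (24) and 2 of 5 blood genes. The 2 blood genes were Spi1 (114) and Itgam (22.7), and the endothelial and epithelial genes with none in any library were Tie1 and Epcam. The part of other cells in the histone values was not tested.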

How the data were processed

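The files are peak lists, 1 per library, on mm10. Bowtie, HOMER, MACS3, SAMtools and bedtools appear in the submitters' processing notes, without versions or roles, and the labels' protocols give paired reads of 75 bp and a target of 50 M reads. For depth reached, duplicates and filters the sources used here state nothing. Each peak carries, as deposited by the authors, a fold enrichment (a ratio of summit to local background), a −log10 p, a −log10 q (all above 2, a q-value of 0.01) and a score of 10 times the −log10 q. Fold and Poisson p together give whole reads at the summit and the local background, and all peaks came out whole within 0.05 reads. Peaks sharing 1 bp were merged across libraries. Genes, starts and promoter sequences come from RefSeq tables of GRCm38.p6.

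Groups were compared by exact permutation of libraries, two-sided, and shares have exact binomial intervals. Percentiles rank each peak within its own library. By rule the text names the 2 lowest and 2 highest genes per class by the mean percentile of the highest fold within 1 kb of the gene, which can be a neighbour's peak and differs from the start-peak percentile, and the testis genes; others were chosen after their values were seen. Members and lists were chosen with earlier results of these data known. Scripts (Python 3.11.15, SciPy 1.17.1) were tested on simulated data. Alternatives were other flanks, summit windows, a stricter q, leaving out each library, a replicate block, and, added after seeing the data, ranking by reads, start windows and leaving out tRNA regions.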

Additional observations from a re-analysis of the deposited data

How the results depend on the processing

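The member genes with a peak in all 4 libraries numbered 50 or 51 under every alternative run. Histone peaks stayed wider than those between the genes. The difference was 373 to 396 bp when a library was left out, and this result was not run with summit windows. The fold percentile against the regions between turned to -1.66 at a −log10 q of at least 10 (exact permutation p = 0.375) and to -5.14 without tRNA regions (p = 0.25, exact permutation), and was 1.82 to 3.01 with a library left out. Against other gene ends it was -22.2 to -21.0 with a library left out and turned to 12.1 when ranked by reads. Histone regions called in all 4 libraries were 83.3% with summit windows of 200 bp, 100% with start windows, and 97.7% to 100% with a library left out. The siRNA difference in regions called was 0 with start windows and -1 to 0 with a library left out, and regions called with 1 siRNA only numbered 0 to 1. The siRNA difference in fold percentile was 1.79 to 4.56 with a library left out and turned to -0.357 when ranked by reads. Ranking by reads, start windows and leaving out tRNA regions were chosen after seeing the data.

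Same-numbered libraries did not deviate together (r = 0.0140 over 55924 shared regions). The labels name no shared culture or day, and this correlation cannot show whether same-numbered libraries shared any. With a replicate block the siRNA differences were 3.23 percentile points (exact permutation p = 0.5, the smallest possible) and -0.5 regions (exact permutation p = 1). Read totals are unknown, and with 2 libraries per group an exact permutation p cannot go below 0.333.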

Other observations

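Of the 48 regions at tRNA genes between the histone genes, 38 (79.2%) were called in all 4 libraries, with a median height of 41.2 times background. The 13 regions at neither a tRNA gene nor another gene end had a median of 15.5 times, and 6 were called in all 4. Among histone genes of other loci, H2ac19 and H3c15 shared the tallest peak at 228 times background, and H2bu2 had the lowest at 14.0 times. H4bc24, an H2B-like gene by its older symbol Hist1h2br, lies in the span and had a peak in all 4 libraries, but its symbol left it out of the 51 genes, and its peak is counted in the region of H2ac24.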
